A study of Bos taurus with 16 samples.

Results

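The cows compared here were grouped by the hepatic signal of *ISG15*, an interferon-stimulated gene, in liver biopsies taken at week 1 postpartum. Within each labelled *FGF21* group, the 8 cows were ranked by *ISG15*, and the upper 4 of both groups (8 cows, the upper set) were compared with the lower 4 of both groups (8 cows, the lower set). All 16 cows of the series thus entered the comparison, with 4 cows of each *FGF21* group in each set. Of the 20421 transcript clusters on the array, 20420 were compared, all except *ISG15*. All animals were multiparous Holstein cows fed the same total mixed ration, and the labels name no treatment. They belonged to the *FGF21* high group (8 cows) or the *FGF21* low group (8 cows), with 1 Affymetrix array per cow. The study took these groups from a larger cohort, as the cows with the highest and the lowest hepatic *FGF21* expression among those not medically treated. Cows with *FGF21* expression between the groups and medically treated cows are not part of the series. The sets were selected on a measured value and are no treatment groups. The *ISG15* values themselves are therefore a description, and a test on any other gene shows only whether its signal varied with *ISG15* between cows.

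*ISG15* encodes a ubiquitin-like protein that is secreted or attached to other proteins by a short chain of enzymes, and it is among the genes switched on most strongly when type I or type III interferon binds its receptor. Receptor-bound JAK kinases then activate transcription factors, STAT2 among them, which together with IRF9 switch on a broad set of antiviral genes in the nucleus. Interferon gamma binds a receptor of its own and favours chemokines and antigen presentation. In ruminants the type I family also includes interferon tau, the signal of the early embryo. Signals are given as log2 units of the normalized array signal, so that a difference of 1 is a doubling. Levels of different genes are not compared with each other, since each probe set has its own response.

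*ISG15* was represented by a single transcript cluster with 22 probes, placed by the array annotation on the minus strand of chromosome 16 between positions 52714627 and 52715654, with no build named by the sources read here. In the upper set, *ISG15* was 6.44 in *FGF21* high replicate 2, 6.87 in replicate 5, 6.63 in replicate 6 and 6.50 in replicate 8. Among the *FGF21* low cows of the upper set it was 9.64 in replicate 2, 6.87 in replicate 3, 6.44 in replicate 7 and 6.42 in replicate 8. In the lower set, *ISG15* was 6.32 in *FGF21* high replicate 1, 6.38 in replicate 3, 6.40 in replicate 4 and 6.19 in replicate 7. Among the *FGF21* low cows of the lower set it was 6.37 in replicate 1, 6.41 in replicate 4, 6.15 in replicate 5 and 6.39 in replicate 6. A single cow, *FGF21* low replicate 2, stood apart from the other 15, which lay between 6.15 and 6.87 with a median of 6.41. It was 2.76 above the next cow and 9.38-fold above the median of the other 15. That median was close to the median signals of the arrays (6.25 to 6.34), and no detection calls were given, so the fold is uncertain.

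**Figure D1:**
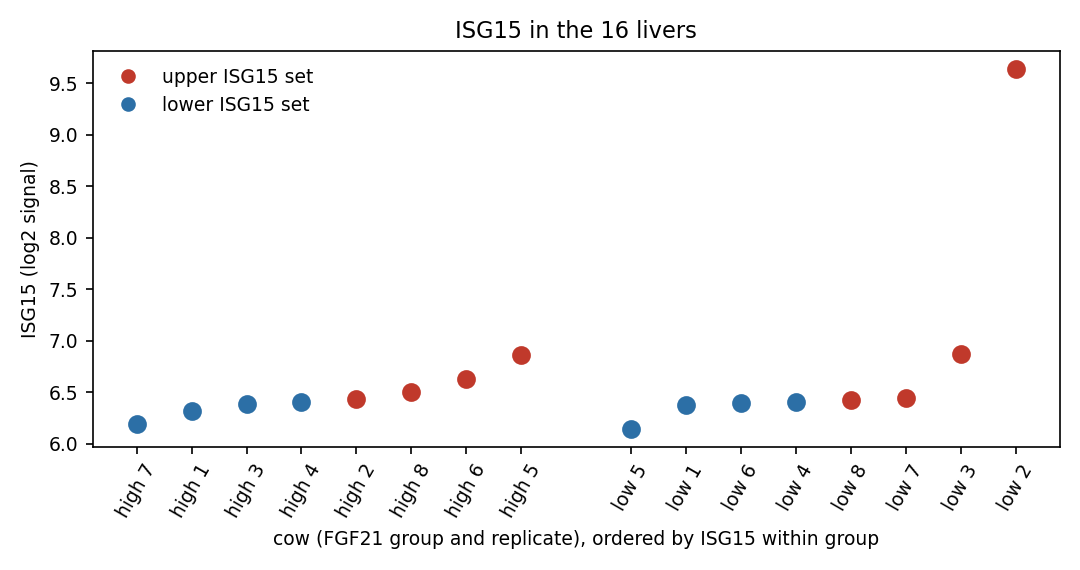
*ISG15* log2 signal (y axis) of each cow, ordered within the *FGF21* high group (left 8) and the *FGF21* low group (right 8), with the upper set in red and the lower set in blue. *FGF21* low replicate 2 lies at 9.64, and the other 15 cows lie from 6.15 to 6.87 with no gap at the border of the sets.

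The mean of *ISG15* was 6.98 ± 1.09 (SD, n = 8) in the upper set and 6.33 ± 0.10 (n = 8) in the lower set, which is 1.57-fold. Without *FGF21* low replicate 2 the mean of the upper set was 6.60 ± 0.20 (n = 7), which is 1.205-fold above the lower set. The border between the sets was narrow: the cows just inside and just outside of the upper set differed by 0.03 in the *FGF21* high group (6.44 in replicate 2, 6.40 in replicate 4) and by 0.01 in the *FGF21* low group (6.42 in replicate 8, 6.41 in replicate 4). The rank within the group thus separated 1 liver with a high *ISG15* signal and several livers with signals close to those of the lower set. The differences between the sets are accordingly given for all 16 cows and with *FGF21* low replicate 2 left out. The array of this cow had the highest median log2 signal (6.34) of a range from 6.25 to 6.34. It was the highest of the 16 cows in 18.1% of the transcripts and the lowest in 4.06%, and after the median of each array was subtracted these shares were 11.67% and 7.12%. With the array medians subtracted, the comparison of the sets by limma gave 0 adjusted calls. At an unadjusted p under 0.05 it gave 676 higher and 530 lower transcripts, against 681 and 517 without this step. The part of the offset in the other results was not tested.

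The liver origin of the biopsies was checked with hepatocyte markers. Albumin (*ALB*) lay between 13.61 and 13.73 in all 16 cows, and the median difference of the 10 hepatocyte markers between the sets was -0.01, or -0.02 without *FGF21* low replicate 2. In a biopsy, more cells of a type and more RNA per cell cannot be told apart.

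Between the sets, no transcript differed at an adjusted p under 0.05 (0.0% of 20420, limma with Benjamini-Hochberg adjustment, smallest adjusted p = 0.813). At an unadjusted p under 0.05, 681 transcripts were higher (3.33%) and 517 were lower (2.53%) in the upper set. With *FGF21* low replicate 2 left out, these numbers were 423 (2.07%) and 535 (2.62%), and again no transcript passed the adjusted threshold. At the study's thresholds, an unadjusted p under 0.05 and a fold change above 1.2, limma gave 199 higher (0.975%) and 120 lower transcripts (0.588%), and 147 and 148 without *FGF21* low replicate 2. The methods' t-test, as the unmoderated statistics of the same model, gave 141 higher and 97 lower at these thresholds and 0 after adjustment. The gene lists below are described against these shares and against the median difference of all transcripts, which was 0.0048, with 10591 of 20420 positive. Without *FGF21* low replicate 2, the median of all transcripts was -0.0053, with 9743 positive.

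The genes of *ISG15* conjugation were all positive in difference, and none of the 6 measured reached an unadjusted p under 0.05. Their median difference was 0.25, and 0.08 without *FGF21* low replicate 2. *UBA7*, the enzyme that activates ISG15, had values from 6.55 to 8.53 with a median of 6.93 in the upper set and from 6.53 to 6.99 with a median of 6.70 in the lower set. The sets overlapped, and in the upper set only *FGF21* low replicate 2 lay above 7.08. The difference was 0.32 (standard error 0.20) with all cows and 0.10 without *FGF21* low replicate 2. *USP18*, the protease that removes ISG15 from proteins and also dampens interferon receptor signalling, ranged from 7.10 to 9.11 (median 7.53) in the upper set and from 7.00 to 7.88 (median 7.27) in the lower set. The difference of 0.37 (standard error 0.22) became 0.15 without this cow. *HERC6*, which serves as the main ISG15 ligase in mice, ranged from 5.51 to 9.42 (median 6.10) in the upper set and from 5.61 to 6.34 (median 5.93) in the lower set, and the lowest value of all 16 cows was in the upper set. Its difference was 0.52 (standard error 0.39) and 0.09 without *FGF21* low replicate 2. *HERC5*, the main ligase in humans, *TRIM25*, a ligase for ISG15 and ubiquitin, and *UBE2L6*, the conjugating enzyme, differed by 0.18, 0.08 and 0.04, and by 0.07, 0.0085 and -0.0070 without this cow.

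Among 53 measured antiviral effectors, 49 had a positive difference, 7 were higher and 1 was lower at an unadjusted p under 0.05, and none passed after adjustment. The median difference was 0.26, and 0.08 without *FGF21* low replicate 2, when 46 were positive, 4 higher and 1 lower. *XAF1*, an interferon-induced inhibitor of anti-apoptotic proteins, had the smallest p of the list. It ranged from 5.72 to 6.79 (median 5.93) in the upper set and from 5.33 to 6.17 (median 5.59) in the lower set, and all 8 cows of the upper set lay above the mean of the lower set. The difference was 0.45 (standard error 0.14, adjusted p = 0.820 by limma, p = 0.00816 by the exact permutation test within *FGF21* groups), and 0.33 without *FGF21* low replicate 2. *OAS1Z*, one of the bovine oligoadenylate synthetases that sense double-stranded RNA and activate RNase L, ranged from 5.74 to 9.55 (median 6.48) against 5.58 to 6.45 (median 6.06), with a difference of 0.86 (standard error 0.37) that was 0.47 without this cow. LOC782879, described in the array annotation as *IFI44L*, ranged from 5.94 to 8.28 (median 6.45) against 5.63 to 6.63 (median 6.04), and its difference was 0.61 (standard error 0.25), or 0.37 without this cow. In each of these 3 genes the sets overlapped, and the highest cow was *FGF21* low replicate 2.

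The differences of the other members with the smallest p were smaller. They were 0.40 for *IFI16*, a sensor of DNA in the nucleus, 0.29 for *TRIM34*, 0.28 for *IFIT5*, which binds viral RNA ends, and 0.32 for *TDRD7*. Without *FGF21* low replicate 2 they were 0.24, 0.20, 0.16 and 0.17. The only member lower at an unadjusted p under 0.05 was *C7H19orf66* (*SHFL*), an inhibitor of ribosomal frameshifting in viruses, which ranged from 7.88 to 8.24 in the upper set and from 8.07 to 8.34 in the lower set. Its difference was -0.16 (standard error 0.07), and -0.19 without *FGF21* low replicate 2.

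**Figure D2:**
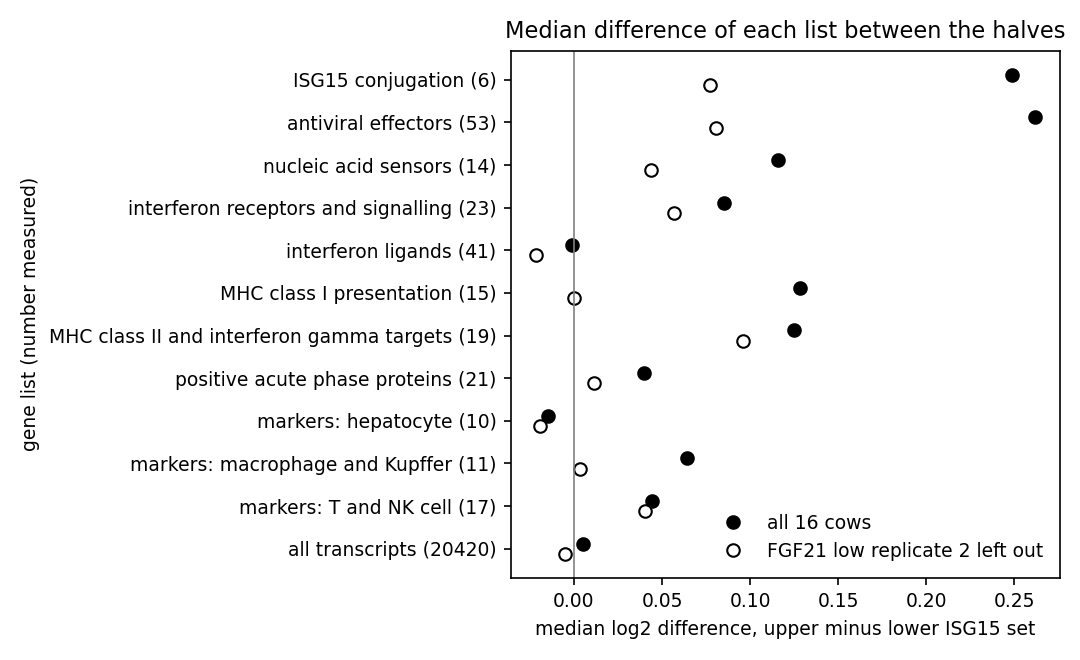
Median log2 difference between the upper and the lower *ISG15* set (x axis) for 11 gene lists and for all transcripts (y axis, number measured in brackets), with all 16 cows (filled) and with *FGF21* low replicate 2 left out (open). The antiviral effectors move from 0.26 to 0.08 and *ISG15* conjugation from 0.25 to 0.08, while the list with interferon gamma targets moves from 0.13 to 0.10.

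Of the 14 nucleic acid sensors and their adaptors, 12 were positive and 2 were higher at an unadjusted p under 0.05, with a median difference of 0.12, or 0.04 without *FGF21* low replicate 2. *TLR7*, an endosomal receptor for single-stranded RNA, ranged from 5.17 to 5.44 (median 5.31) in the upper set and from 4.94 to 5.31 (median 5.10) in the lower set. All 8 cows of the upper set were above the mean of the lower set. The difference was 0.20 (standard error 0.07, adjusted p = 0.820 by limma, p = 0.00531 by the exact permutation test), and 0.18 without *FGF21* low replicate 2. The signal of *TLR7* was low, below the array medians of 6.25 to 6.34. *DDX58*, which encodes the cytosolic RNA sensor RIG-I, ranged from 7.38 to 8.96 (median 7.66) against 7.24 to 7.83 (median 7.39), and its difference was 0.36 (standard error 0.17), or 0.19 without this cow.

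Of the 23 genes for interferon receptors and their signalling, 17 were positive and 2 were higher at an unadjusted p under 0.05, with a median difference of 0.09, or 0.06 without *FGF21* low replicate 2. *JAK2*, the kinase bound to the interferon gamma receptor and to receptors of growth hormone and other cytokines, ranged from 6.57 to 7.31 (median 6.86) in the upper set and from 6.36 to 6.80 (median 6.63) in the lower set. In 7 of 8 cows of the upper set it was above the mean of the lower set, and the difference was 0.28 (standard error 0.10, p = 0.00612 by the exact permutation test), or 0.21 without this cow. *IRF2*, a factor that binds the same motifs as IRF1, differed by 0.16 (standard error 0.07) and by 0.15 without this cow. The differences of the receptor chains were 0.15 for *IFNAR1*, 0.09 for *IFNAR2*, 0.05 for *IFNGR1*, 0.09 for *IFNGR2* and 0.03 for *IFNLR1*, and 0.12, 0.08, 0.06, 0.07 and 0.06 without this cow. They were 0.11 for *IRF9*, 0.10 for *STAT2* and -0.06 for *IRF7*, the factor that amplifies interferon alpha expression, and -0.05, 0.01 and -0.09 without this cow. None of these reached an unadjusted p under 0.05.

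The 41 measured interferon genes themselves had a median difference of -0.001, and -0.02 without *FGF21* low replicate 2. At an unadjusted p under 0.05, 3 of them were higher and none lower. *INFAF*, the array's symbol for an interferon alpha gene, ranged from 4.98 to 5.47 (median 5.23) in the upper set and from 4.57 to 5.26 (median 4.91) in the lower set. Its difference was 0.36 (standard error 0.10, adjusted p = 0.820 by limma), and 0.34 without *FGF21* low replicate 2. *IFNG*, which encodes interferon gamma, ranged from 3.22 to 3.72 (median 3.47) against 2.87 to 3.42 (median 3.19). Its difference was 0.28 (standard error 0.09) and 0.26 without this cow, and all 8 cows of the upper set lay above the mean of the lower set. The highest value of *IFNG* was that of *FGF21* high replicate 2. The third was LOC104968438, with a difference of 0.31, or 0.23 without this cow. *IL29*, a type III interferon, differed by 0.21, or 0.23 without this cow. In *FGF21* low replicate 2 none of the 41 exceeded the other 15 cows by more than 1. The interferon alpha genes are near-identical copies, so a probe set may read more than 1 of them.

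Among 19 genes of MHC class II and targets of interferon gamma, 13 were positive, 4 were higher and 1 was lower at an unadjusted p under 0.05. The median difference was 0.13, and 0.10 without *FGF21* low replicate 2, when 3 were higher and 1 lower. *CXCL10*, a chemokine that draws activated T cells, ranged from 5.91 to 7.77 (median 6.90) in the upper set and from 5.69 to 6.96 (median 5.98) in the lower set. Its highest values were 7.77 in *FGF21* high replicate 2, 7.63 in *FGF21* high replicate 5 and 7.63 in *FGF21* low replicate 2. The difference was 0.80 (standard error 0.24, adjusted p = 0.820 by limma, p = 0.0159 by the exact permutation test), and 0.66 without *FGF21* low replicate 2. *CXCL9*, a chemokine for the same receptor, ranged from 5.77 to 7.47 (median 6.26) against 5.02 to 6.20 (median 5.90), and its highest cow was *FGF21* high replicate 5. Its difference was 0.73 (standard error 0.24), or 0.60 without *FGF21* low replicate 2. *IFI47*, an interferon-inducible GTPase, was highest in *FGF21* high replicate 5 (6.88), replicate 6 (6.79) and replicate 2 (6.66), and lay at 6.11 in *FGF21* low replicate 2. Its difference was 0.59 (standard error 0.18), or 0.58 without this cow. The lower member was *BOLA-DQB*, a polymorphic class II chain, at -0.42 (standard error 0.17), or -0.40 without *FGF21* low replicate 2. Its exact permutation p was 0.0686, and a probe set for this gene can read alleles unequally.

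A member outside of the naming rule, chosen after its values were seen, was *OAS1X*, another bovine oligoadenylate synthetase. It lay at 10.76 in *FGF21* high replicate 6 and 8.99 in replicate 8 of the upper set, at 7.64 in *FGF21* low replicate 1 of the lower set, and at 6.85 and 5.61 in *FGF21* low replicates 3 and 2. The other 11 cows lay between 4.08 and 5.22, so that the high signals were in both sets and 4 cows lay above *FGF21* low replicate 2. The difference was 1.52 (standard error 0.80, adjusted p = 0.820 by limma), or 1.61 without *FGF21* low replicate 2.

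**Figure D3:**
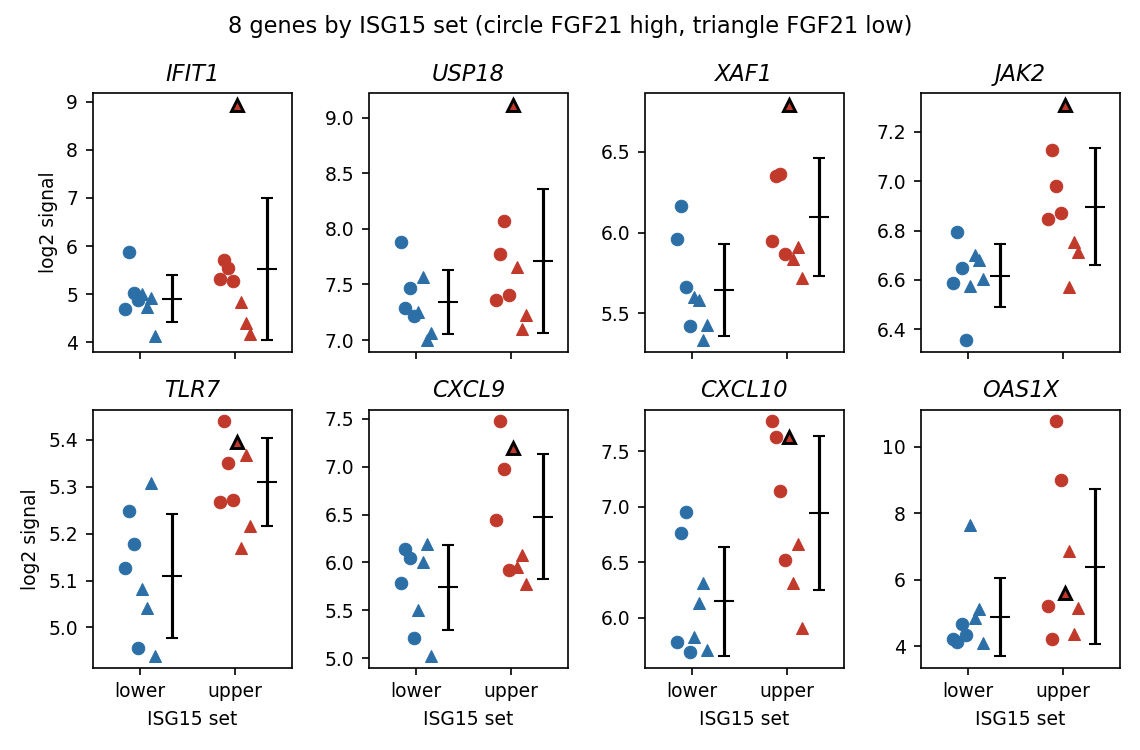
Log2 signal (y axis) of 8 genes in the lower and upper *ISG15* set (x axis), with circles for *FGF21* high cows, triangles for *FGF21* low cows, a black outline for *FGF21* low replicate 2, and bars for mean ± SD (n = 8 per set). *IFIT1* stands apart in the outlined cow alone (8.93 against at most 5.87), whereas *CXCL9* and *CXCL10* are high in several cows of the upper set.

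The 15 measured genes of MHC class I presentation had a median difference of 0.13 and of 0.00 without *FGF21* low replicate 2, and none reached an unadjusted p under 0.05. *ERAP2*, which trims peptides for class I molecules, ranged from 6.63 to 8.597 (median 7.12) in the upper set and from 6.54 to 7.34 (median 6.86) in the lower set, and differed by 0.38 (standard error 0.21), or 0.16 without this cow. In *PSMB9*, *PSMB10* and *PSME1*, subunits of the immunoproteasome and its activator, the medians of the sets were 5.28 and 5.44, 7.81 and 7.80, and 9.18 and 9.22.

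The medians of *ISG15* conjugation, antiviral effectors, sensors, receptors and signalling, and MHC class I presentation were highest in *FGF21* low replicate 2, those of the interferon genes and of class II and interferon gamma targets in other cows. In this single cow there is no replicate, so its values are given without a test. Apart from *ISG15*, 30 transcripts lay more than 1 log2 unit above all other 15 cows (0.147%), against 0 to 8 in each of the other cows, and 24 of the 30 belonged to the interferon lists. The transcripts named for this cow were chosen after their values were seen. *IFIT1*, which binds viral RNA lacking cap methylation, lay at 8.93, where the other 15 cows ranged from 4.12 to 5.87 (median 4.92). The files give no detection calls, so no fold is given against these low signals. *HERC6* lay at 9.42 (others 5.51 to 6.67), and *MX2*, a dynamin-like GTPase that blocks viruses, at 9.70 (others 5.86 to 7.15). *MX1*, the related GTPase that serves as a blood marker of early pregnancy in cows, lay at 10.36 (others 6.59 to 8.70). The signals of *HERC6*, *MX2* and *MX1* were at least 9.09-fold over the median of the other cows. This median was 5.94 for *HERC6* and 6.33 for *MX2*, below or close to the array medians of 6.25 to 6.34, so their folds are uncertain.

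*OAS1Y* in this cow was 10.92 (others 7.89 to 8.96), *OAS1Z* was 9.55 (others 5.58 to 7.11), and *RSAD2*, which encodes viperin, was 9.45 (others 6.89 to 7.67). *IFI6*, a small protein that inhibits viral replication at the endoplasmic reticulum, was 13.45, 10.03-fold over the median of the others, and in the other cows it reached 11.64 in *FGF21* high replicate 5. *IFI27* was 10.54 with 9.18 as the highest of the others, also in *FGF21* high replicate 5, and *ISG12(B)*, annotated on the same chromosome 21 and a member of no list, was 7.90 (others 4.85 to 5.27). LOC100298356, described as *BST2*, which tethers budding virus to the cell, was 9.82 (others 7.10 to 8.20). Lower in fold, but still over 1 log2 unit above all others, were *USP18* (9.11), *UBA7* (8.53), *IFIH1* (8.61), which encodes the RNA sensor MDA5, *ZBP1* (9.63), *EPSTI1* (8.66), *RTP4* (8.08), *ZNFX1* (8.79), *IFI44* (7.83), *PSMB9* (6.84), *PSMB10* (9.46) and *GBP4* (8.44).

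Also outside of the interferon lists, *CRYAB*, a small heat shock protein, lay at 9.28 in this cow (others 5.94 to 7.89), *PNPT1*, a mitochondrial RNA exonuclease, at 8.67 (others 6.99 to 7.56), and *IL18BP*, the soluble inhibitor of interleukin 18, at 8.50 (others 6.26 to 7.27). The 1 transcript more than 1 log2 unit below all others was *SUN3*, at 4.77 against 5.90 to 7.52. After the median of each array was subtracted, 25 transcripts lay over 1 log2 unit above and 3 below all other cows. By list, *FGF21* low replicate 2 was the highest of the 16 cows in 42 of 53 antiviral effectors, 5 of 6 genes of *ISG15* conjugation, 11 of 15 of MHC class I presentation, 7 of 14 sensors, 6 of 23 receptor and signalling genes and 4 of 19 class II and interferon gamma genes. Over all transcripts it was the highest in 18.1%, and the shares of the last 2 lists lie near this. Of the 15 genes of sterol synthesis, it was the highest in none and the lowest in 7, and over all transcripts it was the lowest in 4.06%. It was the highest in 5 of 14 ER chaperones and the lowest in none. Sterol synthesis and ER chaperones were picked out after their values were seen.

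**Figure D4:**
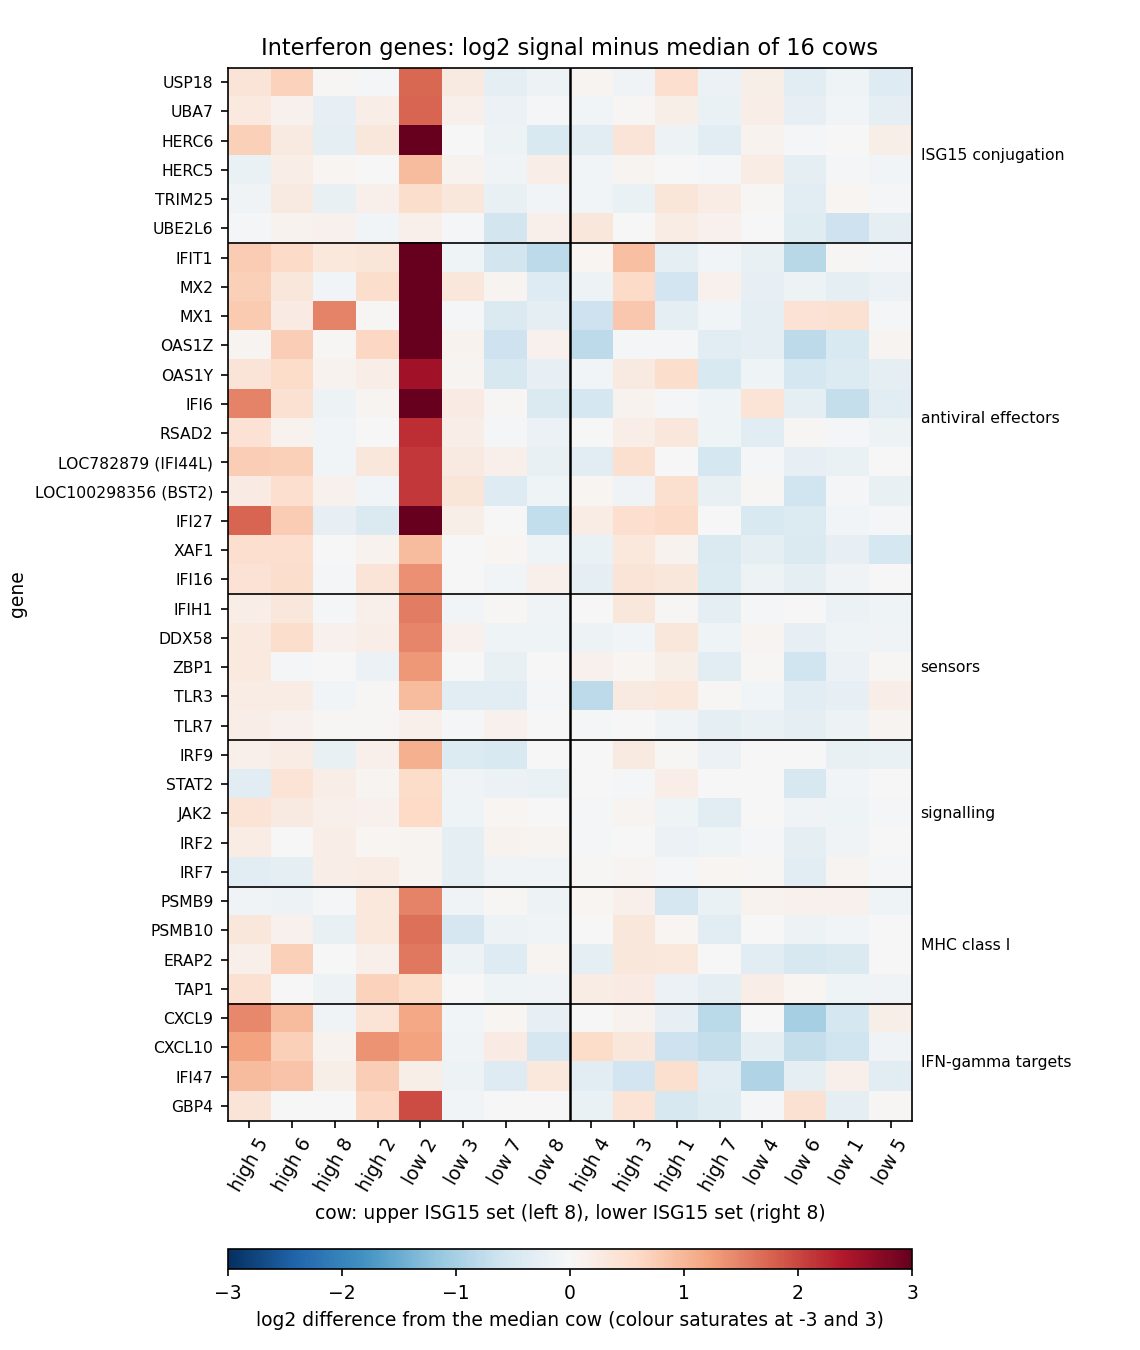
Log2 signal minus the median of the 16 cows (colour, from -3 to 3) for interferon genes (rows) in each cow (columns), with the upper *ISG15* set on the left of the vertical line and the lower set on the right. The rows are a part of each list, and many were chosen because *FGF21* low replicate 2 was high in them, so its colours are a description. This cow is red in most rows, with the darkest among the antiviral effectors and pale ones such as *UBE2L6*, *TLR7*, *IRF2* and *IRF7*. *CXCL9*, *CXCL10* and *IFI47* are also red in *FGF21* high replicates 5, 6 and 2.

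Markers of inflammation and of blood cells were examined beside these values. In *FGF21* low replicate 2 the 21 positive acute phase proteins deviated from the median of the other cows by a median of 0.03, with none of the 21 the highest of all cows. *HP*, which encodes haptoglobin, was 11.79 in this cow (others 6.74 to 12.75, median 12.23), and *SAA3*, a serum amyloid A, was 9.54 (others 6.55 to 11.21, median 9.01). The median deviation was -0.01 for 17 markers of T and NK cells, 0.13 for 12 of neutrophils and 0.16 for 9 of B and plasma cells. It was 0.17 for 11 of macrophages and Kupffer cells, 0.99 for the antiviral effectors and 0.08 for all transcripts. The 11 macrophage and Kupffer markers deviated by -0.29 to 0.96, and this cow was the highest in 3 of them. For plasmacytoid dendritic cells the median was 0.11, but only 3 of 6 markers were measured, without *CLEC4C*, *IL3RA* and *LILRA4*. A difference in cell content was not tested. Across the sets, the mean log2 signal per cow over the macrophage and Kupffer list ranged from 8.35 to 9.12 in the upper set and from 8.46 to 9.07 in the lower set.

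The other 15 cows differed less and in another order. Relative to the median cow, the median of the antiviral effectors was 0.99 in *FGF21* low replicate 2, 0.29 in *FGF21* high replicate 6, 0.20 in *FGF21* high replicate 5 and 0.19 in *FGF21* high replicate 3. The last of these belonged to the lower set, and *FGF21* low replicate 3, second in *ISG15* of all cows, had a median of -0.01. The median of MHC class II and interferon gamma targets was highest in *FGF21* high replicate 5 (0.43) and replicate 3 (0.30). The markers of macrophages and Kupffer cells were highest in the same 2 cows (0.40 and 0.32), and their part in the result was not tested.

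**Figure D5:**
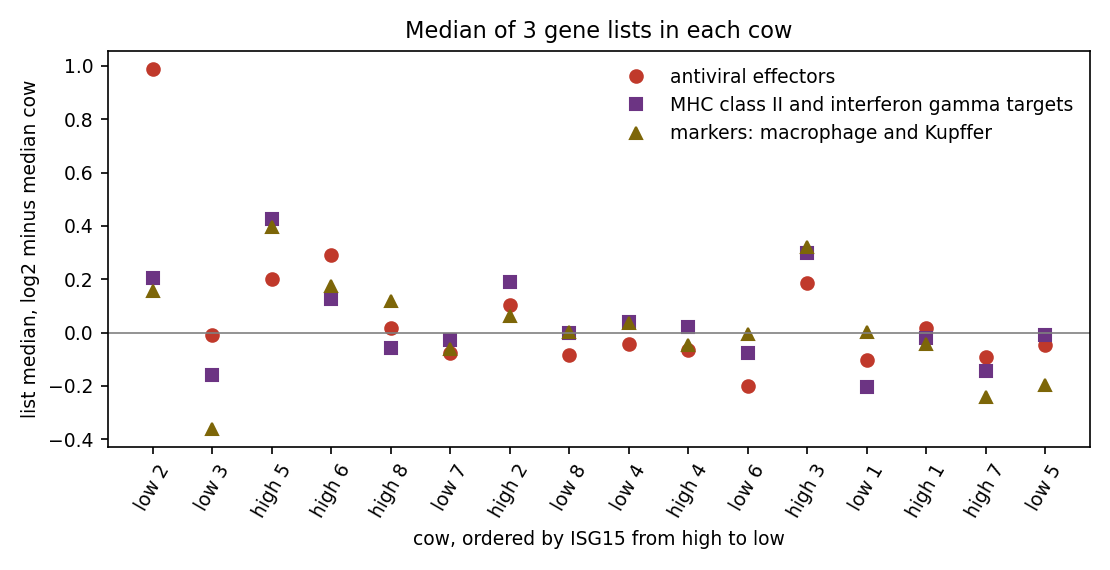
Median log2 deviation from the median cow (y axis) for 53 antiviral effectors (circles), 19 MHC class II and interferon gamma genes (squares) and 11 macrophage and Kupffer markers (triangles) in each cow, ordered by *ISG15* from high to low (x axis). The antiviral median is 0.99 in *FGF21* low replicate 2 and from -0.20 to 0.29 in the other cows.

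When the *ISG15* signal itself replaced the sets as a covariate, 216 transcripts were higher with it (1.06%) and 12 were lower (0.0588%) at an adjusted p under 0.05 by limma, with the smallest adjusted p for *RSAD2* (1.25e-06). Only 51 of the 216 higher transcripts belonged to the interferon lists, and the others lay outside of them. The 51 included 33 of 53 antiviral effectors, 4 of 6 genes of *ISG15* conjugation and 4 of 14 sensors. They also included 6 of 15 genes of MHC class I presentation, 3 of 23 receptor and signalling genes and 1 of 19 class II and interferon gamma genes. In other lists, 1 of 14 ER chaperones and 1 of 11 macrophage and Kupffer markers were called higher. None of the 41 interferon genes was called. With *FGF21* low replicate 2 left out, no transcript was called (smallest adjusted p = 0.919), while 483 were higher and 551 lower at an unadjusted p under 0.05. The calls with the signal as covariate thus rested on this cow. Of the 216 higher transcripts, 199 kept a positive slope without it. They were chosen in a fit that held the same remaining cows, so this count is a description and no independent support. The share of positive slopes over all transcripts was not computed. Without *FGF21* low replicate 2, *ISG15* ranged only from 6.15 to 6.87. The loss of calls therefore cannot tell whether these genes varied with *ISG15* in the other cows. The slope of *RSAD2* per log2 unit of *ISG15* was 0.71 with all cows and 0.52 without this cow, that of *IFI6* was 1.11 and 1.68, and that of *ISG12(B)* was 0.82 and -0.08.

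In the comparison of the sets, transcripts outside of the interferon lists had the smallest p. The upper set lay wholly above the lower set in 5 transcripts (0.0245%) and wholly below it in 3 (0.0147%). Those above were *MIR1296*, *TROVE2*, *ZNF565*, *DUS2* and *CUL5*, and those below were *VOPP1*, *KDM4B* and *KIAA0100*, of which *DUS2*, *CUL5*, *KDM4B* and *KIAA0100* were named after their values were seen. *MIR1296*, annotated as a microRNA on chromosome 28, had the smallest p of all: it ranged from 5.69 to 6.14 in the upper set and from 5.03 to 5.59 in the lower set, with a difference of 0.48 (standard error 0.09, adjusted p = 0.813 by limma), or 0.45 without *FGF21* low replicate 2. *TROVE2*, which encodes the Ro60 protein that binds misfolded small RNAs, ranged from 7.19 to 7.64 against 6.80 to 7.18, with a difference of 0.30 (standard error 0.08) and of 0.26 without *FGF21* low replicate 2. Other transcripts with small p and a positive difference were *MIR2285D* (0.70), *THNSL1* (0.40), *HNMT* (0.38), the histamine methyltransferase, *FAM107A* (0.33) and *CREG1* (0.31), a lysosomal glycoprotein. Without *FGF21* low replicate 2 these were 0.77, 0.35, 0.34, 0.32 and 0.30.

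On the lower side, *VOPP1* ranged from 5.51 to 5.89 in the upper set and from 5.93 to 6.16 in the lower set, with a difference of -0.28 (standard error 0.06). *MIR1248-2* differed by -0.61 (standard error 0.14), *ACTA1*, the skeletal muscle actin, by -0.41 (standard error 0.10), *FGF13*, an intracellular member of the FGF family, by -0.34 (standard error 0.08), and *NSMF* by -0.28 (standard error 0.07). Without *FGF21* low replicate 2 these differences were -0.28, -0.60, -0.36, -0.33 and -0.30. None of these transcripts passed after adjustment.

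Further lists gave few members with a small p. The metallothioneins, which bind zinc and copper, had a median difference of 0.81, with 5 of 5 positive and 2 higher at an unadjusted p under 0.05, and of 0.69 with 1 higher without *FGF21* low replicate 2. *MT2A* ranged from 10.10 to 11.52 (median 11.27) in the upper set and from 8.61 to 11.52 (median 10.62) in the lower set, with a difference of 0.81 (standard error 0.31), or 0.69 without this cow, and an exact permutation p of 0.0555. The difference was 0.14 within the *FGF21* high group and 1.47 within the *FGF21* low group, and the test of the interaction gave no adjusted p under 0.05 for any transcript (707 lower and 228 higher at an unadjusted p under 0.05). *TNFAIP3*, an inhibitor of NF-κB that NF-κB itself induces, differed by 0.27 (standard error 0.10), or 0.22 without *FGF21* low replicate 2, and its list of 13 had a median of 0.06 with 2 higher at an unadjusted p under 0.05. *IGJ*, the joining chain of secreted IgA and IgM, differed by 0.43 (standard error 0.14), or 0.38 without this cow, and was the 1 of 9 B and plasma cell markers at this p (median 0.06). *PECAM1*, an endothelial adhesion molecule, differed by 0.23 (standard error 0.10), or 0.24 without this cow, and was the 1 of 8 endothelial markers at this p (median 0.01, 5 of 8 positive). *SOX9*, a factor of bile duct cells, differed by -0.25 (standard error 0.10), or -0.26 without this cow, and was 1 of 2 lower among 6 cholangiocyte markers (median -0.10). The median differences of fatty acid oxidation and ketogenesis, gluconeogenesis and sterol synthesis were -0.0033, 0.02 and -0.06 (-0.0075, 0.0007 and -0.0009 without this cow), with none of their 16, 8 and 15 members at an unadjusted p under 0.05. *FGF21* itself, balanced between the sets by the group, ranged from 4.85 to 8.10 in the upper set and from 4.78 to 8.69 in the lower set, and differed by -0.17 (standard error 0.27), or -0.22 without *FGF21* low replicate 2.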

How the data were processed

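Total RNA of liver biopsies from 16 cows was run on whole-transcript Affymetrix arrays, 1 for each cow. The deposited values are log2 signals per transcript cluster, which the authors' service provider made with Affymetrix Expression Console 1.4 by the robust multichip average (RMA) method, with signal space transformation (SST) as the name of the deposited sheet gives it (background correction, normalization between arrays, probe summary). The same log2 signals, rounded by the authors, differed from them by at most 0.005. Columns with the authors' means, fold changes and p-values were not used. A build for the annotated positions was not given in the sources used here. Precision was limited by the number of arrays, which have no depth of reads. The study also reported some RNA degradation, which it named as a possible limit to sensitivity and specificity, while judging the integrity sufficient for arrays. RNA integrity of single cows was not used here.

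Groups and replicate numbers came from the sample labels. The cluster of *ISG15* with the highest mean (only 1 exists) ranked the cows within each group. The members, gene lists and tests were chosen with earlier results of these data known. No filter was applied. Transcripts were fitted with limma 3.58.1 in R 4.3.3 (lmFit, default eBayes, *FGF21* group and set as terms), and p was adjusted over 20420 clusters by Benjamini-Hochberg with a threshold of 0.05. Differences are those of the model, upper minus lower set. A two-sided exact permutation test reassigned 4 of 8 cows in each group (4900 assignments) and was run for 398 genes without adjustment, so these p-values are descriptive. Lists got no test. Python 3.11.15, numpy 2.4.6, pandas 2.3.3 and matplotlib 3.10.9 did the remaining steps, and the fit was tested on simulated data.

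Named were *ISG15*, *FGF21*, members of *ISG15* conjugation, signalling and ligands, in other lists up to 8 members with the smallest p, and the 15 transcripts per direction with the smallest p above a 1.2-fold change. The transcripts that stood out in single cows, and *ALB*, *HP* and *SAA3*, were named after their values were seen. Of 440 list genes, 404 were measured, 35 of them matched by the array's description. For 14673 clusters the accession was in the RefSeq table. Alternatives were the methods' t-test, other blocks, eBayes options, array weights, scalings, a filter, other uses of the *ISG15* signal, single groups and leaving out each cow. A search for promoter motifs was not done, and 1 member of the signalling list is not reported by name here.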

Additional observations from a re-analysis of the deposited data

Results flagged for a closer look

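For 77 genes, among them the genes named above with their values, the highest and the lowest cow of each set of 8 were compared with the nearest other cow relative to the range of the set (Dixon's ratio, which picks out about 1 in 20 groups by chance). The chance rate is per set of 8, and 154 such sets were examined at both ends (308 ends). Of these ends, 39 stood apart, and 32 of the 39 were *FGF21* low replicate 2 as the highest cow of the upper set. Many of these genes were chosen because this cow was high in them, so their number is a description.

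In *FGF21* low replicate 2, this held for *ISG15* (9.639) and, in conjugation, for *UBA7* (8.53), *HERC6* (9.415) and *HERC5* (8.43). Among antiviral effectors it held for LOC782879 (8.282), *OAS1Z* (9.547), *IFI16* (9.284), *IFIT5* (9.989), *TDRD7* (9.141), *IFIT1* (8.927), *MX2* (9.695), *RSAD2* (9.452), *IFI44* (7.825), *OAS1Y* (10.92), *ZNFX1* (8.788), *RTP4* (8.084), *EPSTI1* (8.659) and LOC100298356 (9.824). Among sensors and signalling genes it held for *DDX58* (8.957), *IFIH1* (8.606), *DHX58* (8.077), *TLR3* (6.429), *ZBP1* (9.632) and *IRF9* (8.599). It also held for the presentation genes *PSMB9* (6.842), *PSMB10* (9.455) and *PSME1* (10.55), for *GBP4* (8.443), and outside of the interferon lists for *ISG12(B)* (7.90), *CRYAB* (9.278), *PNPT1* (8.665) and *IL18BP* (8.499). The same cow was the lowest of the upper set in *SUN3* (4.767).

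In other cows, 6 values stood apart. These were the lowest values of the upper set in *IRF2* (8.505, *FGF21* low replicate 3), *VOPP1* (5.508, *FGF21* high replicate 6) and *UBE2L6* (7.21, *FGF21* low replicate 7). In the lower set they were the lowest values of *STAT2* (9.291) and *IRF7* (5.486), both in *FGF21* low replicate 6, and the highest value of *OAS1X* (7.641, *FGF21* low replicate 1).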

How the results depend on the processing

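Under 33 alternatives, 0 transcripts were called in either direction after adjustment except with the *ISG15* signal as covariate (216 higher, 12 lower, and 0 without *FGF21* low replicate 2). At an unadjusted p under 0.05, the number of higher transcripts was 383 with the replicate block, 2438 with the *ISG15* signal, 1223 with the *ISG15* rank (chosen, like the fit of the signal without *FGF21* low replicate 2, after seeing the data) and 437 within the *FGF21* low group. The number of lower ones was 202 among transcripts with a mean signal above the median, 928 within the *FGF21* high group and 218 within the *FGF21* low group. At the study's thresholds, higher transcripts numbered 324 with the replicate block, 99 with the signal filter, 358 without ranks 4 and 5, 401 within *FGF21* high and 348 within *FGF21* low. Lower ones numbered 394, 22, 213 and 684 in the first 4 of these settings. Fewer transcripts entered the filter, and fewer cows entered the fit without ranks. The values within 1 group came from a fit of all 16 cows and compared 4 cows with 4. The cause of these changes was not tested. Leaving out 1 cow at a time gave 0 to 0 adjusted calls, 423 to 891 higher and 367 to 666 lower at an unadjusted p under 0.05, and 147 to 305 higher and 103 to 183 lower at the study's thresholds. The fewest higher, 423 and 147, came without *FGF21* low replicate 2, while 305 higher came without *FGF21* low replicate 3 and 183 lower without *FGF21* low replicate 5. Of 1305 values of 40 genes, 11 passed the threshold with the *ISG15* signal, 7 changed sign, and the others kept direction and side of the threshold. *C7H19orf66* was 0.000499 with the *ISG15* signal. *FGF21* was 0.50 with the replicate block, 0.12 with the signal, 0.72 with the signal without *FGF21* low replicate 2, 0.0064 without ranks 4 and 5, and 0.018 with the rank, and from -0.36 to 0.033 with 1 cow left out (0.033 without *FGF21* high replicate 1). The medians of 7 lists, the only ones recomputed (210 values), moved by less than 1 SD of the cows' list medians. This SD included *FGF21* low replicate 2 and was widened by it, so it cannot judge the removal of this cow. The antiviral median was 0.26 with all cows and 0.08 without *FGF21* low replicate 2. Cows with the same replicate number did not deviate together (r from -0.206 to 0.133, none closest to its own number), so the numbers pair no cows. No second *ISG15* cluster existed to rank by, and ranking all 16 cows together gave the same sets. Signals near the array's lower end, as for *IFNG*, limit what can be read from small differences.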
